A study of Mus musculus with 6 samples.

Results

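The immunoglobulin constant and secretory genes described here are *Ighm*, *Ighd*, *Igha*, *Igkc*, *Iglc1*, *Iglc2*, *Iglc3*, *Jchain* and *Mzb1*. They are 9 rows of the deposited gene table, out of 54532, whose gene name is one of these symbols, and each symbol matched 1 row. The libraries labelled KO came from primary macrophages of *Metrnl* knockout mice, and those labelled WT from primary macrophages of wild-type mice. Both had been exposed in vitro to the fungus *Candida albicans* for 6 h, and there were 3 libraries of each. The labels give no strain, age, sex, tissue of origin or targeting allele, and no uninfected cells were included here. Nothing in them tells if the replicates are separate mice or cultures, and a p-value therefore speaks only of the spread of these 6 libraries, part of which may be technical. *Metrnl* itself stood at 51.2, 63.6 and 62.8 FPKM in KO libraries and at 93.5, 63.2 and 69.8 FPKM in WT libraries, and it was not called different (limma, adjusted p = 0.181). A value per gene does not show which exons were read, so this level does not check the labels, and KO stands for the libraries labelled KO.

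An antibody is built from heavy and light chains, each with a variable part that binds antigen and a constant part that sets its class. *Ighm*, *Ighd* and *Igha* encode the constant parts of the heavy chains of IgM, IgD and IgA, *Igkc* that of the kappa light chain, and the *Iglc* genes those of the lambda light chains. IgM and IgD are spliced from one primary transcript of a naive B cell, while IgA and IgG need class switching of the DNA. *Jchain* encodes the joining chain, which links secreted IgM or IgA into polymers, and *Mzb1* encodes a chaperone of the endoplasmic reticulum that helps marginal zone B cells and B-1 cells assemble and secrete IgM. These genes are known mainly from cells of the B lineage, in which B-1 cells are the innate-like branch of the body cavities.

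The structure of these genes sets what a value per gene can show. *Ighm* and *Igha* each give a secreted and a membrane-bound chain from one gene, and the deposited values sum both forms. The end of the coding sequence that is present in the secreted form alone is the tailpiece, which takes part in joining to the J chain, and it is shown because *Ighm*, *Igha* and *Jchain* part from each other in the results. In the following pair, from the GENCODE M21 transcripts (GRCm38, minus strand, stop codon left out), capitals mark the letters that the aligned mu and alpha tails share, 40 of 59 bases. The mu tail lies at chr12:113420870-113420928 and the alpha tail at chr12:113258771-113258829.
Ighm secreted tail: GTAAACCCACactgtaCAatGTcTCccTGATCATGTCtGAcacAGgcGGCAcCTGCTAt
Igha secreted tail: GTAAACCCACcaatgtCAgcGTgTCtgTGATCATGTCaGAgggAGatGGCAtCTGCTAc

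The lambda constant genes are close copies, which limits how reads can be assigned to them. The 312 coding bases of *Iglc2* and *Iglc3* differed at 11 positions (96.5% identity), and their longest identical run was 79 bases. *Iglc1* was 72.7% identical to *Iglc2* and 73.3% identical to *Iglc3*, with longest identical runs of 19 and 17 bases. The first 120 bases of the 3 constant exons from their shared start are shown from the same GENCODE transcripts (GRCm38, minus strand), with the 30 positions at which the genes differ in capitals. They lie at chr16:19061950-19062069 for *Iglc1*, chr16:19198731-19198850 for *Iglc2* and chr16:19065560-19065679 for *Iglc3*.
Iglc1: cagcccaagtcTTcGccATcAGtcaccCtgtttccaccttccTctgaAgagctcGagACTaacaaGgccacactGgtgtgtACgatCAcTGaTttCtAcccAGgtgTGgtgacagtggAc
Iglc2: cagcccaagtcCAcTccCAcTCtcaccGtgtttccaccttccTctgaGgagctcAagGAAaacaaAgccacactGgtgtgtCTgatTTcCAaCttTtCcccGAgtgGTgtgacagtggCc
Iglc3: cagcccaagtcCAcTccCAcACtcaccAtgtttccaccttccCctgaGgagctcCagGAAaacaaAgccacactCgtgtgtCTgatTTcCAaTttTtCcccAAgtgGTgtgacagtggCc
Over these 120 bases *Iglc2* and *Iglc3* differed at 7 positions and *Iglc1* differed from *Iglc2* at 28. The division of reads between *Iglc2* and *Iglc3* is therefore uncertain, and that between *Iglc1* and either of them less so.

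The deposited values are FPKM, fragments per kilobase of gene scaled by a factor for each library, which allow levels to be compared between genes per length. Once gene length was multiplied out, 100% of the nonzero values of each library fell within 0.05 of a whole multiple of its smallest unit, and these multiples are given as reads. Libraries held 11026529 to 15724897 reads in genes. The replicate 1 libraries of both groups stood apart from the others of their group. Chi-square per degree of freedom between replicates, which is near 1 for sampling noise, was 59.4 and 59.4 for pairs with KO replicate 1 against 2.30 for KO replicates 2 and 3, and 42.2 and 39.6 for pairs with WT replicate 1 against 7.10 for WT replicates 2 and 3. Of the 11689 genes that averaged 0.5 FPKM or more, 1833 were higher and 1445 lower in KO (limma on log2(FPKM + 1), Benjamini-Hochberg adjusted p below 0.05). The higher calls were 55.9% of all calls, and 31.8% when each library was rescaled to the same FPKM total.

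Of the 9 genes, 8 were called lower in KO, all but *Igha*, where 12.4% of all tested genes were called lower. None was called higher, against 15.7% of all tested genes. For 8 of the 9 every KO value lay below every WT value, which 19.9% of all tested genes showed, and for none did every KO value lie above, which 25.7% showed. The median difference of log2(FPKM + 1) between KO and WT was -3.61 over the 9, against 0.03 over all genes tested. All 9 passed the filter on low values, but *Ighd*, *Iglc3* and *Jchain* averaged under 0.5 FPKM in KO and passed through their level in WT. Bulk libraries cannot tell fewer B lineage cells from less RNA per such cell. Without the replicate 1 libraries of both groups 8 of the 9 were also called lower, where 1908 of all 11689 tested genes were. Voom on the recovered reads called 8 too, where it called 13.4% of all tested genes lower.

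**Figure D1:**
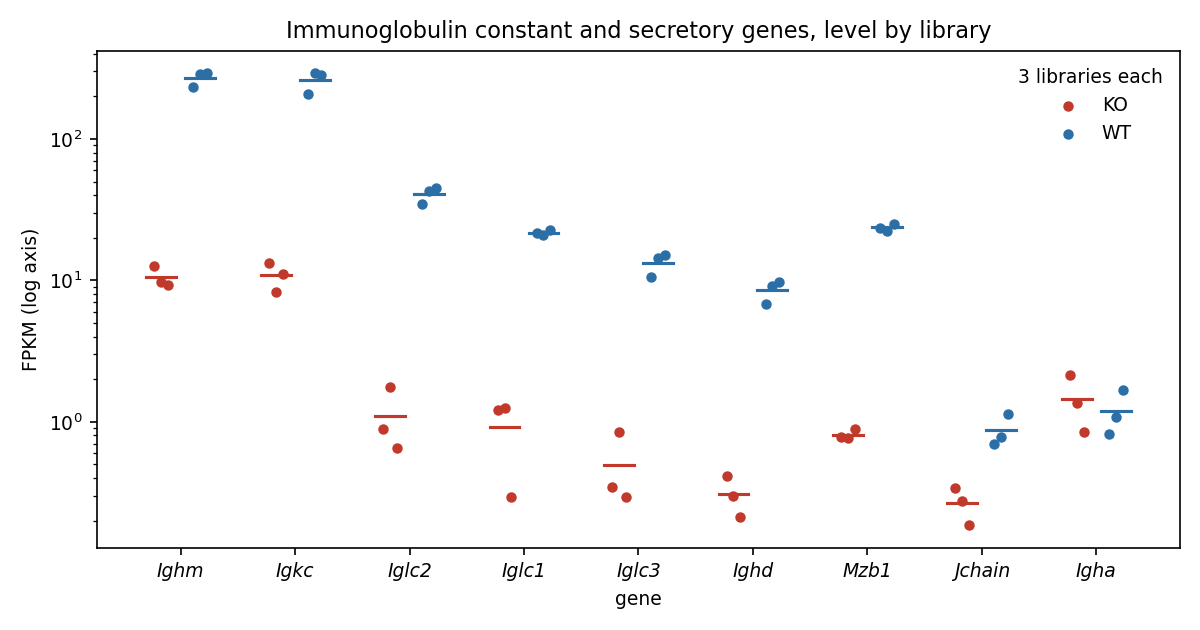
Level of the 9 genes in each library in FPKM on a log axis, with 3 KO libraries to the left of 3 WT libraries for each gene and a line at each mean. All genes but *Igha* sit lower in KO, and *Ighm* averages 10.6 FPKM in KO and 271 FPKM in WT.

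*Ighm* (ENSMUSG00000076617, chromosome 12, 113418558 to 113422730, minus strand) had 12.7, 9.74 and 9.27 FPKM in KO libraries, against 234, 287 and 291 FPKM in WT libraries. The groups were far apart, and replicate 1 was the highest of KO and the lowest of WT. These values rest on 306, 290 and 262 reads in KO and 7086, 6370 and 6862 reads in WT. From the summed reads, scaled as the FPKM are, *Ighm* was 25.6-fold lower in KO (95% exact counting interval 23.9 to 27.4). Such intervals cover counting error only, and reads without molecular identifiers are not independent molecules. The log2 fold change was -4.56 ± 0.14 (SE; limma, adjusted p = 2.97e-05).

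*Ighd* (chromosome 12, 113406604 to 113416324) had 0.411, 0.300 and 0.211 FPKM in KO libraries, from 10, 9 and 6 reads. In WT libraries it had 6.83, 9.12 and 9.80 FPKM, from 208, 204 and 233 reads. It was 27.9-fold lower in KO (counting interval 18.7 to 43.4; limma, adjusted p = 1.12e-04), so its interval held the fold of *Ighm*. The groups did not overlap. Within a library the log2 ratio of *Ighd* to *Ighm* FPKM was -5.14 ± 0.28 in KO and -4.99 ± 0.11 in WT (SD, n = 3 each), a difference of -0.15 with overlapping groups (two-sided exact permutation p = 0.6). The difference was smaller than the spread between KO libraries, and without KO replicate 3 it was 0.0057.

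*Igha* (chromosome 12, 113254830 to 113260236, minus strand) was not called different. It had 2.14, 1.35 and 0.850 FPKM in KO libraries, from 73, 57 and 34 reads, against 0.818, 1.08 and 1.68 FPKM in WT libraries, from 35, 34 and 56 reads. The groups overlapped, with the highest value in KO replicate 1. The log2 fold change was 0.14 with a 95% interval of -0.41 to 0.70 (limma, adjusted p = 0.682), and without the replicate 1 libraries it was -0.18 (adjusted p = 0.514). This scale understates changes of low genes. The scaled reads were 1.21-fold higher in KO (counting interval 0.956 to 1.55). Relative to *Ighm*, *Igha* was higher in every KO library. The log2 ratio of *Igha* to *Ighm* FPKM was -2.57, -2.85 and -3.45 in KO libraries and -8.16, -8.05 and -7.44 in WT libraries, a difference of 4.93 (two-sided exact permutation p = 0.1, the smallest that 3 against 3 libraries can give; 0.25 adjusted over the 5 ratios and shares tested).

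The alpha share of heavy chain RNA did not overlap between the groups. Of the reads in heavy chain constant genes, *Igha* took 17.5%, 14.3% and 10.2% in KO libraries and 0.468%, 0.505% and 0.768% in WT libraries. The lowest KO interval (7.20% to 14.0%, exact binomial) and the highest WT interval (0.581% to 0.996%) were far apart. *Ighm* took 73.6%, 72.7% and 78.9% in KO and 94.8%, 94.7% and 94.1% in WT. Per length, as shares of FPKM, *Igha* averaged 10.4% ± 2.83 in KO and 0.413% ± 0.117 in WT (SD, n = 3 each). The totals behind these shares were 416, 399 and 332 heavy chain reads in KO against 7475, 6729 and 7291 in WT. Every KO total was below every WT total, while the *Igha* reads in them overlapped. *Ighd* took 2.40%, 2.26% and 1.81% in KO and 2.78%, 3.03% and 3.20% in WT, where each KO interval held all 3 WT values.

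The IgG genes were not among the 9 but complete the isotypes. *Ighg3*, which encodes the IgG subclass made without much T cell help, also fell, with 0.0934, 0.151 and 0.186 FPKM in KO libraries against 2.46, 2.50 and 2.99 FPKM in WT libraries. It was 18.0-fold lower by scaled reads (counting interval 10.9 to 32.0; limma, adjusted p = 1.96e-04). *Ighg3* passed the filter through its level in WT, and its KO values rest on 3, 6 and 7 reads. *Ighg2c* had 0.413, 0.956 and 0.453 FPKM in KO and 0.753, 1.22 and 0.783 FPKM in WT, with overlapping groups, and was not called (limma, adjusted p = 0.293). *Ighg2b* was under the filter and 1.96-fold lower by scaled reads (1.29 to 3.01). *Ighg1*, also under the filter, was 2.46-fold lower by the same measure (1.17 to 5.53), but its groups overlapped. It had 4, 6 and 1 reads in KO libraries and 4, 12 and 9 in WT libraries, and its interval leaves out the spread between libraries. Together the 4 IgG genes took 6.49%, 10.8% and 9.04% of heavy chain reads in KO libraries, against 1.95%, 1.80% and 1.92% in WT libraries. *Ighe*, the IgE gene, had 0 reads in all 6 libraries, and *Iglc4* had 0 reads in KO against 0, 1 and 2 in WT, at or under the floor of 3 reads over a group. Reads of the IgG genes may be divided between them, as they are close relatives, and *Ighg2a* was not analysed here.

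**Figure D2:**
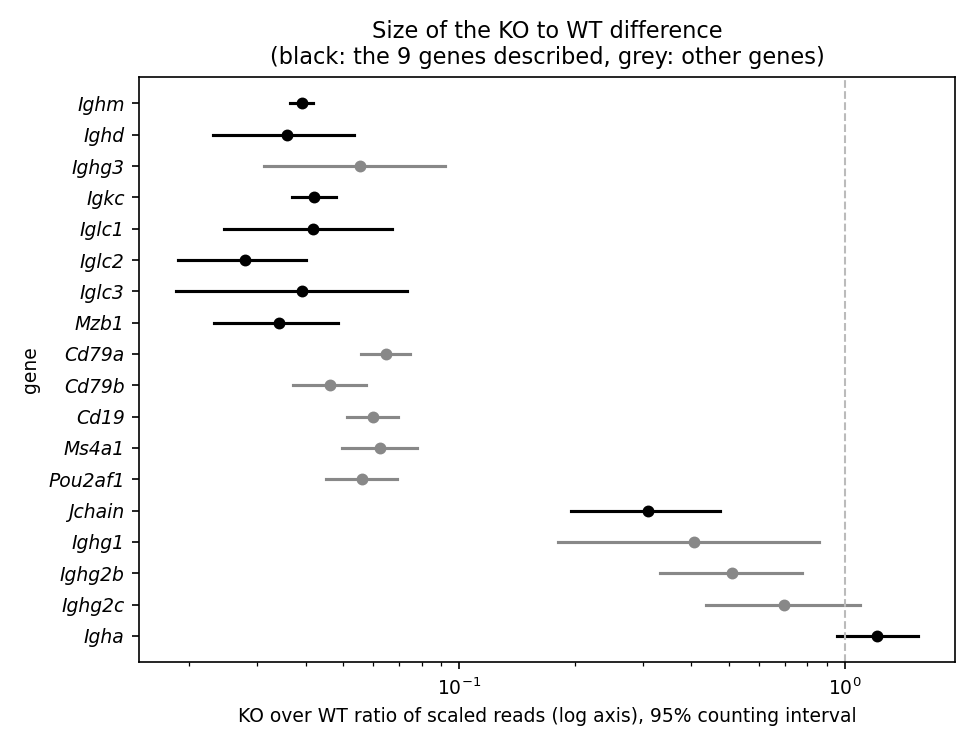
Ratio of KO to WT scaled reads on a log axis with 95% exact counting intervals, for the 9 genes in black and for other immunoglobulin and B cell genes in grey; the dashed line marks no difference. *Ighm*, *Ighd*, the light chain genes and *Mzb1* lie near each other on the left, while *Jchain* (3.24-fold lower) and *Igha* (1.21-fold higher) lie apart on the right. *Ighg1*, *Ighg2b* and *Ighg2c*, in grey, lie between *Jchain* and *Igha*.

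*Igkc* (chromosome 6, 70726435 to 70726966, plus strand) was close to *Ighm* in level and in size of change. It had 13.2, 8.34 and 11.2 FPKM in KO libraries, against 208, 291 and 282 FPKM in WT libraries, and was 23.7-fold lower (counting interval 20.9 to 27.1; limma, adjusted p = 8.64e-05). The groups did not overlap. The log2 ratio of *Igkc* to *Ighm* FPKM was 0.03 ± 0.25 in KO and -0.07 ± 0.10 in WT (SD, n = 3 each), so the kappa and mu constant genes stood at nearly equal levels per length in both groups. In GENCODE M21 *Igkc* lies within the noncoding gene *Gm30211* of the same strand, *Iglc1* and *Iglc3* lie within the antisense gene *2010309G21Rik*, *Iglc2* overlaps *Iglj2*, and *Mzb1* overlaps the gene model *SPATA24* of its strand. Reads of such overlaps could have been counted for either gene, and whether counting used strand is not stated.

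All 3 lambda genes fell. *Iglc2* had 0.894, 1.76 and 0.654 FPKM in KO libraries, against 34.5, 43.0 and 45.2 FPKM in WT libraries. *Iglc1* had 1.21, 1.26 and 0.294 FPKM in KO libraries, against 21.6, 21.0 and 22.7 FPKM in WT libraries. *Iglc3* had 0.346, 0.841 and 0.295 FPKM in KO libraries, against 10.5, 14.3 and 15.0 FPKM in WT libraries. No KO value reached a WT value for any of them, and KO replicate 3 was the lowest library for each. By scaled reads *Iglc1* was 23.9-fold (14.9 to 40.7), *Iglc2* 35.8-fold (24.9 to 53.4) and *Iglc3* 25.6-fold lower (13.7 to 54.1), intervals that overlap each other and that of *Igkc*. All 3 were called lower (limma, adjusted p = 2.26e-04, 1.07e-04 and 1.89e-04). The KO values rest on few reads, 18 for *Iglc1*, 30 for *Iglc2* and 10 for *Iglc3* over the 3 libraries.

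By the constant genes, light chain usage was not shown to differ. Lambda took 15.1%, 31.4% and 10.1% of light chain constant reads in KO libraries and 24.4%, 21.5% and 23.0% in WT libraries. The KO values lay on both sides of the WT values. Their totals were 106, 102 and 99 reads in KO against 2343, 2321 and 2436 in WT, and the intervals of KO replicates 1, 2 and 3 were 8.88% to 23.4%, 22.5% to 41.3% and 4.95% to 17.8%. The means differed by -4.10 percentage points (18.9% ± 11.1 in KO, 23.0% ± 1.48 in WT; SD, n = 3 each; two-sided exact permutation p = 0.6). Without KO replicate 3 the difference was 0.281 points, and without KO replicate 2 it was -10.4 points, so single KO libraries set its size and sign. The variable segments were read as an alternative, outside the 5 ratios and shares tested. *Iglv* segments took 23.3%, 11.5% and 11.4% of light chain variable reads in KO libraries, from 60, 52 and 35 reads, and 26.0%, 26.9% and 28.4% in WT libraries. Here all KO values were lower (difference -11.7 points, two-sided exact permutation p = 0.1, unadjusted and the smallest possible). The upper bounds in KO replicates 1 and 3 (36.0% and 26.7%) reached into the WT range. Over summed reads the share was 16.3% in KO (exact binomial interval 10.7% to 23.3%) and 27.1% in WT (25.7% to 28.6%), intervals that do not overlap but leave out the spread between libraries. Among lambda reads the *Iglc1* share was 43.8%, 28.1% and 20.0% in KO and 27.4%, 22.5% and 23.0% in WT, with KO intervals as wide as 2.52% to 55.6%, and no difference was detectable at this depth.

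**Figure D3:**
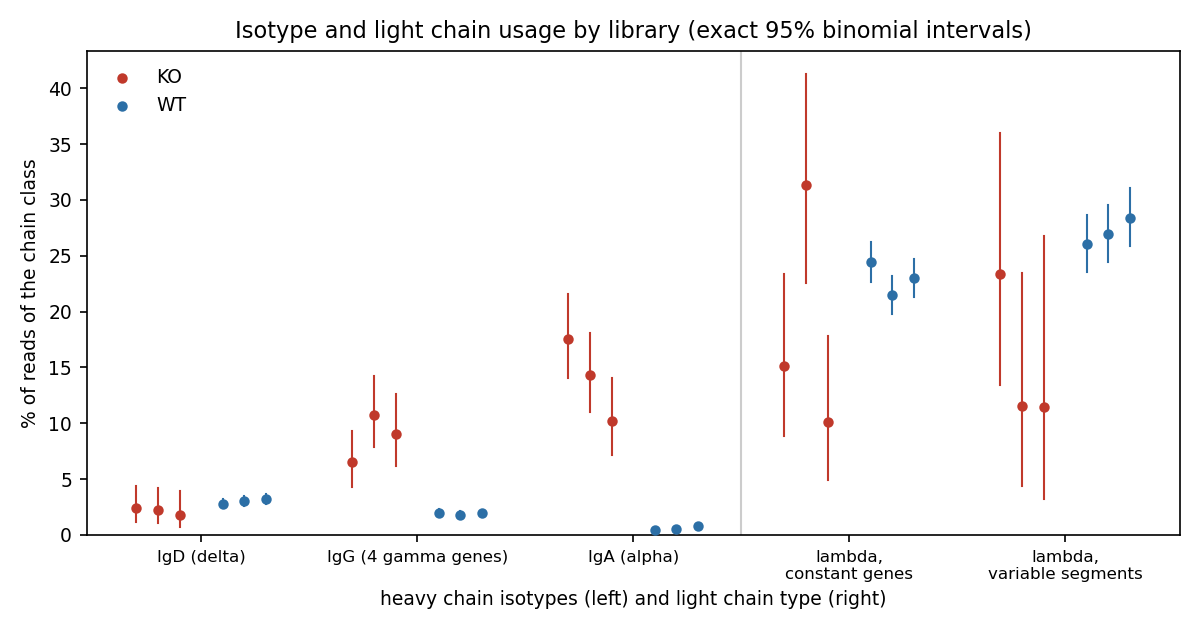
Share of heavy chain constant reads in delta, gamma and alpha genes, and lambda share of light chain reads by constant genes and by variable segments, in percent with exact 95% binomial intervals, for 3 KO libraries to the left of 3 WT libraries. The alpha share is 10.2% to 17.5% in KO and 0.468% to 0.768% in WT, while the KO lambda shares of the constant genes spread around the WT values.

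The secretory genes parted from each other. *Mzb1* (ENSMUSG00000024353, chromosome 18, 35647266 to 35649367, minus strand) had 0.777, 0.770 and 0.885 FPKM in KO libraries, against 23.6, 22.5 and 25.2 FPKM in WT libraries, and both groups were tight. By scaled reads it was 29.3-fold lower in KO (counting interval 20.6 to 43.1), with a limma adjusted p = 6.48e-06 for a log2 fold change of -3.77 ± 0.07 (SE). The log2 ratio of *Mzb1* to *Ighm* FPKM was -3.69 ± 0.32 in KO and -3.50 ± 0.18 in WT (SD, n = 3 each), with overlapping groups (two-sided exact permutation p = 0.5).

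*Jchain* (ENSMUSG00000067149, chromosome 5, 88519809 to 88527891, minus strand) was low in both groups. It had 0.342, 0.277 and 0.186 FPKM in KO libraries, from 11, 11 and 7 reads, against 0.694, 0.776 and 1.14 FPKM in WT libraries, from 28, 23 and 36 reads. The groups did not overlap, and WT replicate 3 was the highest. *Jchain* was 3.24-fold lower in KO (counting interval 2.11 to 5.12), an interval that ends far below those of *Ighm* and *Mzb1*. It was called lower (log2 fold change -0.56 ± 0.13 SE; limma, adjusted p = 0.0211), but 6 of 13 alternatives ended the call, with adjusted p up to 0.0930 in the fit with a replicate block. Relative to *Ighm* it was higher in every KO library, with log2 FPKM ratios of -5.21, -5.14 and -5.64 in KO and -8.40, -8.53 and -7.99 in WT. That difference of 2.98 had the smallest p that 3 against 3 libraries can give (two-sided exact permutation p = 0.1; 0.25 adjusted over the 5). Relative to *Igha*, *Jchain* was lower in every KO library, with log2 FPKM ratios of -2.65, -2.29 and -2.20 in KO libraries and -0.24, -0.48 and -0.55 in WT libraries.

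**Figure D4:**
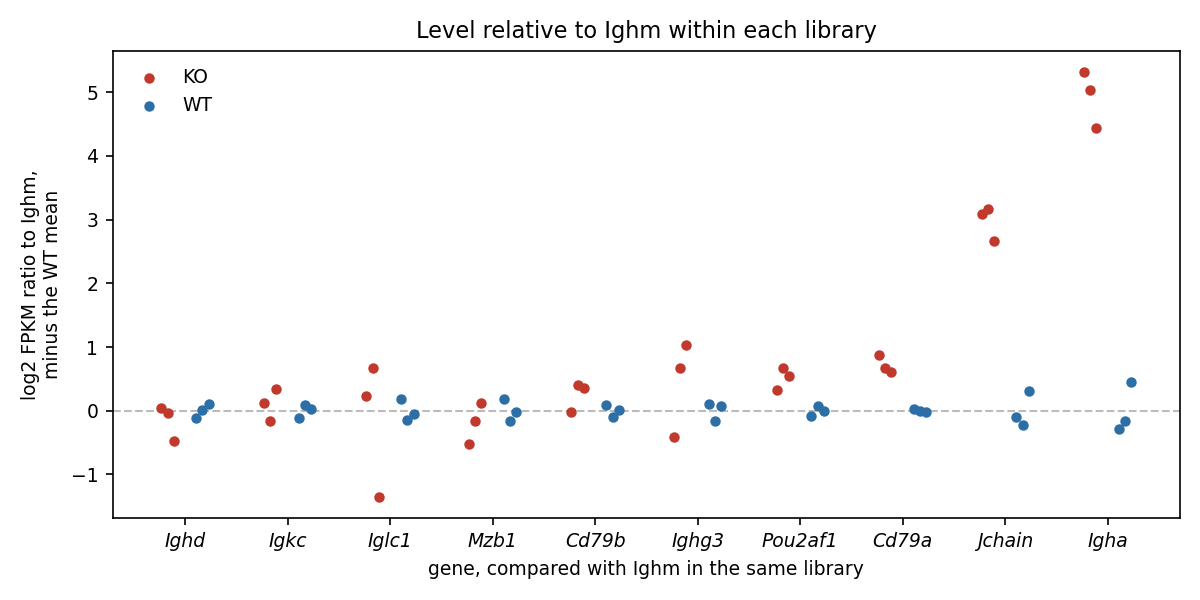
Log2 FPKM ratio of each gene to *Ighm* within a library, minus the mean of that ratio in WT, for 3 KO libraries to the left of 3 WT libraries. *Igha* (difference 4.93) and *Jchain* (2.98) stand above the other genes in KO, and *Ighd*, *Igkc*, *Iglc1* and *Mzb1* scatter around 0.

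The order of the levels per length was partly different in the groups. In KO libraries *Igkc* (10.9 ± 2.45 FPKM) and *Ighm* (10.6 ± 1.85) led within their spread of each other, and were followed by *Igha* (1.45 ± 0.649), *Iglc2* (1.10 ± 0.582), *Iglc1* (0.918 ± 0.541) and *Mzb1* (0.811 ± 0.0642), neighbours that did not differ beyond their spread. *Iglc3* (0.494 ± 0.302), *Ighd* (0.307 ± 0.101) and *Jchain* (0.268 ± 0.0784) were lowest and also lay within each other's spread. In WT libraries *Ighm* (271 ± 31.5 FPKM) and *Igkc* (260.1 ± 45.7) were level, and *Iglc2* (40.9 ± 5.62) came next. *Mzb1* (23.8 ± 1.33), *Iglc1* (21.7 ± 0.886), *Iglc3* (13.3 ± 2.43) and *Ighd* (8.58 ± 1.56) followed, of which *Mzb1* and *Iglc1* were within about their spread. *Igha* (1.19 ± 0.440) and *Jchain* (0.871 ± 0.239) were last and within their spread (SD, n = 3 throughout).

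Other B cell genes fell beside the constant genes, by amounts that varied. Of 17 genes of the B cell receptor and B cell identity, 14 passed the filter and 14 were called lower, against the background of 12.4%, and their median log2 fold change was -2.43. Their summed level was 14.9 to 17.5 FPKM in KO libraries and 183 to 229.9 FPKM in WT libraries. *Ms4a1*, *Pax5*, *Ebf1*, *Fcmr* and *Bank1* averaged under 0.5 FPKM in KO and passed the filter through their level in WT, so the count is a description, and *Vpreb3*, *Cr2* and *Fcer2a* were under the filter. The receptor partner gene *Cd79a* had 4.24, 2.83 and 2.56 FPKM in KO libraries, against 43.8, 52.0 and 52.0 FPKM in WT libraries, and was 15.5-fold lower by scaled reads (13.4 to 17.9). This interval ends below that of *Ighm*, and the log2 ratio of *Cd79a* to *Ighm* was higher in all KO libraries (-1.74 ± 0.14) than in WT (-2.46 ± 0.03; SD, n = 3 each). Its partner *Cd79b* was 21.6-fold lower (17.5 to 26.9), with overlapping ratios to *Ighm*. *Ly6d*, a lymphocyte surface gene, had 1.31 ± 0.230 FPKM in KO and 44.8 ± 9.66 FPKM in WT (SD, n = 3 each). Some genes of this list fell less. By scaled reads *Fcrla* was 8.87-fold, *Cd72* 4.50-fold and *Cd22* 1.77-fold lower.

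Of the B-1 cell list, 4 of 5 genes were called lower, where 12.4% of all tested genes were, and *Cd5* and *Zbtb32* passed the filter through their level in WT. *Zbtb32*, a transcription factor gene, had 0.433 ± 0.124 FPKM in KO and 4.84 ± 0.729 FPKM in WT, and *Ctla4* 0.544 ± 0.0268 FPKM in KO and 7.17 ± 1.79 FPKM in WT (SD, n = 3 each; limma, adjusted p = 2.36e-04 and 3.20e-04). *Cd5* and *Spn*, which T cells also carry, were 2.98-fold and 2.94-fold lower by scaled reads (limma, adjusted p = 0.00587 and 0.00114). *Bhlhe41*, at 9.37 ± 0.971 FPKM in KO and 9.15 ± 1.27 FPKM in WT, was not called (limma, adjusted p = 0.857). Of the T cell list, 4 of 4 tested genes were called lower (*Cd3d*, *Trbc2*, *Lck* and *Cd4*), where 12.4% of all tested genes were. *Cd3d* and *Cd4* passed the filter through their level in WT, and *Cd3e* and *Cd8a* were under it. The list had a summed level of 1.79 to 2.74 FPKM in KO and 9.05 to 10.1 FPKM in WT. Which cells carried *Ctla4*, *Cd5* and *Spn* cannot be told from bulk libraries.

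Of the 18 plasma cell and secretion genes present, 15 were tested, of which 3 were called lower and 3 higher, with a median log2 fold change of -0.02. These counts are near the shares over all tested genes (12.4% lower and 15.7% higher) and are read as values of the named genes only. *Pou2af1*, a B cell coactivator of immunoglobulin promoters, had 0.920, 0.895 and 0.785 FPKM in KO libraries, against 12.8, 17.5 and 16.8 FPKM in WT libraries (17.8-fold lower by scaled reads, 14.5 to 22.2; limma, adjusted p = 6.58e-05). *Tnfrsf13b*, which encodes the receptor TACI, and *Irf4*, a transcription factor of B cells and myeloid cells, also fell (limma, adjusted p = 0.00173 and 0.0242). The other 3 called genes rose, *Sdc1* at 82.4 ± 6.97 FPKM in KO and 56.6 ± 0.634 FPKM in WT, *Herpud1* at 81.7 ± 4.88 FPKM in KO and 29.6 ± 4.07 FPKM in WT, and *Tent5c* at 27.2 ± 2.69 FPKM in KO and 20.0 ± 2.61 FPKM in WT (SD, n = 3 each; limma, adjusted p = 0.00569, 5.70e-04 and 0.0369). *Sdc1* and *Herpud1* are not particular to plasma cells, and both stood far above *Jchain* in every library. *Prdm1* and *Xbp1*, regulators of the plasma cell programme that macrophages also express, were not called (limma, adjusted p = 0.901 and 0.209), and *Tnfrsf17*, which encodes the plasma cell receptor BCMA, had 0 reads in all libraries.

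Genes of precursor B cells were nearly silent. None of the 6 passed the filter, with *Igll1* and *Rag2* at 0 reads in all libraries, *Rag1* at 4 reads in KO and 6 in WT, and *Vpreb1* at 1 read in KO and 1 in WT. *Vpreb2* had 2 reads in KO and 0 in WT. *Dntt*, the enzyme that adds bases at junctions, had 2 reads in KO and 17 in WT. Of the genes of class switching, *Msh6*, a mismatch repair gene, fell (1.47 ± 0.0232 FPKM in KO and 3.05 ± 0.310 FPKM in WT; SD, n = 3 each; limma, adjusted p = 0.00237), *Apobec1* was not called (limma, adjusted p = 0.530) and *Ung* was under the filter, at 0.307 ± 0.108 FPKM in KO and 0.679 ± 0.250 FPKM in WT.

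Of 4 tested receptors and carriers of antibodies 1 was called lower and 1 higher, too few to set against the shares over all tested genes (12.4% lower and 15.7% higher). *Fcmr*, the IgM receptor of B cells, which is also in the B cell list, had 0.405, 0.547 and 0.192 FPKM in KO libraries, against 7.47, 8.51 and 10.4 FPKM in WT libraries, 22.6-fold lower by scaled reads (15.6 to 34.1). *Cd5l*, a macrophage-secreted protein that binds circulating IgM, had 82.1, 82.8 and 82.1 FPKM in KO libraries, against 45.9, 32.5 and 39.6 FPKM in WT libraries (limma, adjusted p = 0.00239). *Pigr*, the epithelial carrier of polymeric antibody, had 0 reads in KO and 38 in WT. The exact 95% counting interval of the ratio starts at 10.6-fold lower, and setting KO to the floor of 3 reads over the libraries gives 13.7-fold. *Fcgrt* and *Trim21* were not called (limma, adjusted p = 0.536 and 0.0518), and *Fcamr* was under the filter, with 2 reads in KO and 8 in WT.

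Of the genes outside the immunoglobulin loci, those with the profiles closest to the members included B cell genes and genes of other kinds. *Igha* and *Jchain* averaged under 2 FPKM and were not compared. Likeness was the mean absolute difference of log2(FPKM + 1), centred per gene, over the 6 libraries. It largely follows the size of the difference between KO and WT on this scale, so it does not show that genes share a cell type. *Ly6d* was closest to *Ighm* (0.14) and to *Igkc* (0.11), and the B cell attractant gene *Cxcl13* came second for both (0.19 and 0.22). *Cxcl13* was closest to *Iglc2* (0.12), *Cd79a* to *Iglc1* (0.18), *Pou2af1* to *Iglc3* (0.13) and *Cd79b* to *Mzb1* (0.063). For *Ighd* the closest was the predicted gene *Gm22858* (0.075), followed by *Fcmr* (0.094) and *Plac8* (0.098). After *Pou2af1*, *Iglc3* had *Gm4951* and the interferon-inducible gene *Iigp1* as its next (0.18 and 0.19).

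Markers of macrophages, the cells named in the labels, were high in sum in both groups. The 10 macrophage genes summed to 8872 to 9555 FPKM in KO libraries and 4985 to 5809 FPKM in WT libraries. Of these genes 4 were called higher (*Lyz2*, *Adgre1*, *C1qa* and *Itgam*), where 15.7% of all tested genes were. *Fcgr1* was the 1 called lower, where 12.4% of all tested genes were, and *Csf1r*, *C1qb*, *Mertk*, *Cd14* and *Cd68* were not called. *Lyz2* had 4431 ± 203 FPKM in KO and 2204 ± 397 FPKM in WT (SD, n = 3 each). *Cd14* (2674 FPKM in KO, 1800 in WT) and *Cd68* (1108 in KO, 842 in WT) came next in level (limma, adjusted p = 0.0755 and 0.0521). Because the extraction text of the labels names retinas, retinal genes were examined too. *Pde6b* had 0.937 ± 0.206 FPKM in KO and 0.541 ± 0.0173 FPKM in WT (SD, n = 3 each; limma, adjusted p = 0.0664), with *Gnat1* at 7 reads in KO and 2 in WT, *Opn1sw* at 5 in KO and 4 in WT, and *Rlbp1* at 1 in KO and 1 in WT. The summed markers of B cells and T cells were thus lower in KO, as 8 of the 9 genes were. The macrophage sum, in which *Lyz2*, *Cd14* and *Cd68* had the highest levels, was higher, but not every macrophage gene was. The part of these markers in the results was not tested.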

How the data were processed

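Gene expression was measured by RNA sequencing in 3 KO and 3 WT libraries, grouped and numbered from their titles. The authors deposited 1 table of FPKM values for 54532 genes with gene lengths. Per the submitters' processing notes, GRCm38 (mm10) was the build. For aligner, counting tool, annotation release and strand use: not given in the sources used here. Reads were recovered from FPKM, gene length and the step of each library, and totalled 11026529 to 15724897 per library. Tests used limma 3.58.1 in R 4.3.3 on log2(FPKM + 1) with genotype alone, eBayes with an intensity trend and Benjamini-Hochberg adjustment over the 11689 genes averaging 0.5 FPKM or more. The code was tested on simulated data. Folds by scaled reads divide summed reads by the library scaling that the FPKM carry, with 95% exact binomial intervals (scipy 1.17.1). Shares have Clopper-Pearson 95% intervals. Ratios within a library were tested by exact permutation over libraries, 5 in all with the lambda share, and the lambda share of variable segments was an alternative outside the adjustment. The members and the 11 gene lists were chosen with earlier results of these data known. Named genes are the 9 members, *Metrnl*, the 3 called genes with the highest mean of each list or any gene of lists of 7 or fewer (some are not reported here), and the 3 nearest profiles of members with a mean of at least 2 FPKM. Other genes named were chosen after their values were seen: *Ms4a1*, *Pax5*, *Ebf1*, *Bank1*, *Vpreb3*, *Cr2*, *Fcer2a*, *Fcrla*, *Cd72*, *Cd22*, *Tnfrsf13b*, *Irf4*, *Prdm1*, *Xbp1*, *Tnfrsf17*, *Itgam*, *Fcgr1*, *Csf1r*, *C1qb*, *Mertk*, *Cd14* and *Cd68*. A symbol with several rows takes the row with the highest mean. Sequences came from the GENCODE M21 transcripts of GRCm38. Alternatives were a pseudocount of 0.1, other filters, quantile normalization, TPM, a replicate block and leaving out libraries, and, chosen after seeing the data, voom on recovered reads and leaving out both replicate 1 libraries. Whether same-numbered libraries belong together was checked from the correlation of their deviations.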

Additional observations from a re-analysis of the deposited data

How the results depend on the processing

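Of 124 values of single members under the alternatives, 116 kept their direction and their side of the threshold. *Ighm*, *Ighd*, *Igkc*, the 3 *Iglc* genes and *Mzb1* were called lower under all 14 alternatives each, with adjusted p (limma) up to 0.00984. *Jchain* lost its call with no filter (log2 fold change -0.56, adjusted p = 0.0559), with quantile normalization (-0.39, 0.0604) and without KO replicate 2, KO replicate 3 or WT replicate 3 (0.0659, 0.0755 and 0.0554), and it was called by voom on recovered reads (-1.65, adjusted p = 0.0132). With a mean of at least 2 FPKM, *Jchain* and *Igha* were not tested. *Igha* was never called and changed sign without KO replicate 1 (-0.052, range over single libraries left out -0.052 to 0.33) and without both replicate 1 libraries (-0.18). Members called lower numbered 7 or 8 throughout, of 9 tested, or of 7 tested at a mean of at least 2 FPKM. The lower calls over all genes moved beside them. They were 604 of 11689 with the replicate block and 1908 of 11689 without both replicate 1 libraries. With no filter they were 1187 of 28477, and at a mean of at least 2 FPKM 876 of 7702.

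Counts over all genes moved more. Higher calls were 542 in TPM, and lower calls 876 at a mean of at least 2 FPKM, where fewer genes were tested. Leaving out single libraries gave 912 to 1681 higher and 851 to 1337 lower calls. Both counts were lowest without KO replicate 2 (912 and 851), KO replicate 3 (914 and 852) or WT replicate 3 (1062 and 879), and higher calls were 1167 without WT replicate 2.

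Same-numbered libraries did not deviate together (correlations -0.50, -0.19 and -0.16 for replicates 1, 2 and 3). Because deviations cancel out within a group of 3 and replicate 1 stood apart in both groups, these correlations are tied to each other. They cannot tell whether the numbers pair the samples. The replicate block gave 479 higher and 604 lower calls and 7 members lower, *Jchain* having an adjusted p = 0.0930. Under it the log2 fold changes are those of the fit without it.

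Leaving out single libraries put the difference of the log2 ratio of *Ighd* to *Ighm* between -0.25 and 0.0057 and that of the lambda share between -10.4 and 0.281 points. The log2 ratio of *Mzb1* to *Ighm* differed by 0.075 without both replicate 1 libraries. The differences for *Igha* (4.60 to 5.18) and *Jchain* (2.86 to 3.13) kept their sign. The cause of these changes was not tested. The planned edgeR and DESeq2 alternatives were not run, since the deposited values are FPKM. Depth limits the KO values of *Iglc3*, *Iglc1*, *Ighd*, *Jchain* and *Iglc2*, which rest on 10, 18, 25, 29 and 30 reads.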
